A study of Mus musculus with 4 samples.

Results

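T cells carry receptors on their surface that raise or restrain the response of the T cell receptor to antigen. The RNA of 10 such genes, out of 56748 genes counted, was examined in lungs of mice bearing metastases of the 4T1 line, a mouse model of triple-negative breast cancer (TNBC). The genes were chosen by name. They comprised 5 inhibitory (checkpoint) receptors (Pdcd1, Ctla4, Lag3, Tigit and Havcr2), 4 costimulatory receptors (Cd28, Icos, Tnfrsf4 and Tnfrsf9) and Foxp3, the transcription factor that defines regulatory T cells. Each name matched 1 row of the count table.

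There were 2 saline samples and 2 samples from mice given the ADC/cmLumiOpto combination. The methods describe 4 biological samples in each group, and 2 of each were analysed here. The mice were BALB/cJ females, which had received luciferase-expressing 4T1 cells through the tail vein at 7 weeks of age. Treatment began later, once metastasis was obvious. The control is called saline in the titles and PBS in the treatment field. The treated mice received CD276-DM1, an antibody against CD276 that carries the microtubule inhibitor mertansine (an antibody-drug conjugate, ADC), together with cmLumiOpto. The latter is an adeno-associated virus packed in exosomes that carries a light-gated mitochondrial channel under a cfos promoter, and it is switched on by the luminescent substrate ViviRen. The treatment field adds the abbreviation Olap, which is not explained, and a dose of 16 mg/kg of ADC, where the methods state 8 mg/kg for the ADC, with ViviRen at 2 mg/kg. The design text gives 3 weeks of treatment. In these samples the combination alone stands against saline, so the parts played by the ADC and by cmLumiOpto cannot be told apart.

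The labels describe tumor cells taken from the lung, whereas the methods describe dissociated lung tissue. Epithelial markers were high in every sample, with Krt8 at no fewer than 18245 counts, and so were genes of normal lung, with Sftpc, the surfactant gene of alveolar type 2 cells, at no fewer than 2585 counts. Total counts lay between 15263375 and 19675436 per sample, and a floor of 3 counts corresponded to between 0.152 and 0.197 CPM (counts scaled to library size), for counting error only. Saline replicate 2 stood apart in its content of lung and T cell RNA. Its 6 lung markers summed to 590.1 CPM, against 2736 CPM in saline replicate 1, and its 13 T cell markers to 24.4 CPM, against 70.1 CPM. In the ADC/cmLumiOpto samples the lung markers summed to 11230 and 7474 CPM and the T cell markers to 144.6 and 62.9 CPM. All 13 T cell markers were detected in every sample, at no fewer than 9 counts. ADC/cmLumiOpto replicate 2 held the most neutrophil RNA, at 8022 CPM over 6 markers against no more than 1151 CPM in the other 3 samples. In bulk tissue, fewer cells of a type and less RNA per cell cannot be told apart.

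A T cell is activated when its receptor meets antigen and when CD28 on its surface binds CD80 or CD86 on an antigen-presenting cell. CTLA-4 competes for the same ligands and restrains this signal, and PD-1, the product of Pdcd1, recruits phosphatases once it binds PD-L1 or PD-L2. LAG-3, TIGIT and TIM-3 (the product of Havcr2) are further inhibitory receptors that accumulate on chronically stimulated T cells, while ICOS, OX40 (Tnfrsf4) and 4-1BB (Tnfrsf9) sustain activated T cells. Several of these are also known outside T cells, in particular TIM-3 on dendritic cells and macrophages, TIGIT on NK cells and 4-1BB on NK and myeloid cells.

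The 3 members of the CD28 family Cd28, Ctla4 and Icos lie side by side on the plus strand of chromosome 1, with 113640 bases between Cd28 and Ctla4 and 62094 bases between Ctla4 and Icos. Their listed spans were 60755959 to 60812518 for Cd28, 60926159 to 60954991 for Ctla4 and 61017086 to 61039479 for Icos. Pdcd1 was listed on the minus strand of the same chromosome at 93966027 to 93980278. The other genes were spread over chromosomes 4 (Tnfrsf4 at 156098300 to 156101069 and Tnfrsf9 at 150999019 to 151030559), 6 (Lag3 at 124881324 to 124888668), 11 (Havcr2 at 46345762 to 46372082), 16 (Tigit at 43469230 to 43484509) and X (Foxp3 at 7439883 to 7461484). These positions are those of the count table, whose labels name mm39, and 10 of 10 differed from the GRCm38 annotation, the build named in the methods. Ctla4 overlapped the pseudogene Rpl18-ps1 on the same strand (33 counts over the 4 samples), Tnfrsf9 overlapped Camta1 on the opposite strand (585 counts), and Foxp3 overlapped 4 genes, 3 of them on the opposite strand, with 50 counts in all. Whether the counting used strand is not given in the sources used here, so reads shared between these genes cannot be told apart.

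Promoters from RefSeq (250 bases before and 50 after the start, GRCm38.p6) were matched by symbol for 7 of the 10 genes. They are shown for Pdcd1 and Tnfrsf4, which had the largest positive differences between groups, and for Tigit and Havcr2, which had negative ones. Capitals mark GGAAA on either strand, the core bound by NFAT, the factor that the T cell receptor switches on through calcium, and TGANTCA, the site of AP-1. None of the 4 promoters shown held both motifs. A promoter of Tnfrsf9, which is not shown, held both, with 3 GGAAA matches and 1 TGANTCA match.
Pdcd1 promoter, GRCm38.p6, chr1:94052504-94052803, minus strand: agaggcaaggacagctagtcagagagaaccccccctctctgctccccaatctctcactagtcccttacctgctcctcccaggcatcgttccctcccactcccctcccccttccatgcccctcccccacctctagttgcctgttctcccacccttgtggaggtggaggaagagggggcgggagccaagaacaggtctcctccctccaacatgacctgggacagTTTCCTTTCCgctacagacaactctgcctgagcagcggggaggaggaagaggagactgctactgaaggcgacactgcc
Tnfrsf4 promoter, GRCm38.p6, chr4:156013445-156013744, plus strand: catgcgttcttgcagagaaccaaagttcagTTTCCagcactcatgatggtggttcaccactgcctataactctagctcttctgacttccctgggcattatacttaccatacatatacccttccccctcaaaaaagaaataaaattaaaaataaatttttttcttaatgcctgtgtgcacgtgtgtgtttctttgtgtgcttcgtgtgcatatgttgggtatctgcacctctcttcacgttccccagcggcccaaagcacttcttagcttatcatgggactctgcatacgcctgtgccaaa
Tigit promoter, GRCm38.p6, chr16:43664135-43664434, minus strand: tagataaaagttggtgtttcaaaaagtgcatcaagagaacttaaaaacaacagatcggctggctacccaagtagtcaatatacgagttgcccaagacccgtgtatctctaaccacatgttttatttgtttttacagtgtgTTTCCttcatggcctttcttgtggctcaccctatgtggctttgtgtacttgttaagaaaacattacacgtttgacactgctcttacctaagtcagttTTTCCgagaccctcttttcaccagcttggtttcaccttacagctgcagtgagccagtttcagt
Havcr2 promoter, GRCm38.p6, chr11:46454681-46454980, plus strand: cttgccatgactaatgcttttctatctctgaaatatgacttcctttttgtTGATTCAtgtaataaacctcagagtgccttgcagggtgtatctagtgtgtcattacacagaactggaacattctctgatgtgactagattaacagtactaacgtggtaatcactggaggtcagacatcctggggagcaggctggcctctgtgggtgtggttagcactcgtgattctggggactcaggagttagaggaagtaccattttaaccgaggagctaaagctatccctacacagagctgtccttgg
The Pdcd1 promoter held 2 adjoining GGAAA matches close to the start, Tigit held 2, Tnfrsf4 held 1, and Havcr2 held a TGANTCA match and no GGAAA. Over the 9 promoters listed for the 7 genes, 8 held GGAAA and 2 held TGANTCA. Among all 32851 promoters of that length, 61.3% held GGAAA and 7.81% held TGANTCA. These are matches of letters within a short window, and the 4 genes shown do not divide by them into those that were higher and those that were lower.

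Expression after ADC/cmLumiOpto was compared with that after saline to ask whether T cell regulatory receptors differed between the treated and untreated lungs. All 10 genes passed the expression filter of edgeR, among the 15320 genes tested. Differences are given as the log2 fold change (log2FC) with its standard error (SE). In the quasi-likelihood test of edgeR, adjusted by the Benjamini-Hochberg method over all 15320 genes, 0 of the 10 had an adjusted p under 0.05, and neither did any other gene (0.0% of all tested). At an unadjusted p under 0.05 there was 1 of 10, Pdcd1, against 23.2% of all tested genes (3553), and 11.0% in the same direction. Other tools made calls on these data. DESeq2 called 1353 genes (9.99% of those given an adjusted p, 4.28% higher), the exact test of edgeR 1170 genes (7.64%, 3.96% higher), the quasi-likelihood test without an expression filter 2259 genes (8.84%, 4.79% higher) and the same test with a replicate block 607 genes (3.96%, 2.01% higher). In each of these 4, Pdcd1 was the 1 gene of the 10 that was called, though DESeq2 gave no adjusted p for Foxp3. Of the 10, 8 had a positive log2FC, where 52.0% of all tested genes did. The median log2FC was 0.46 over the 10 genes and 0.028 over all tested genes. The smallest two-sided p of an exact permutation of 2 samples against 2 is 0.333.

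**Figure D1:**
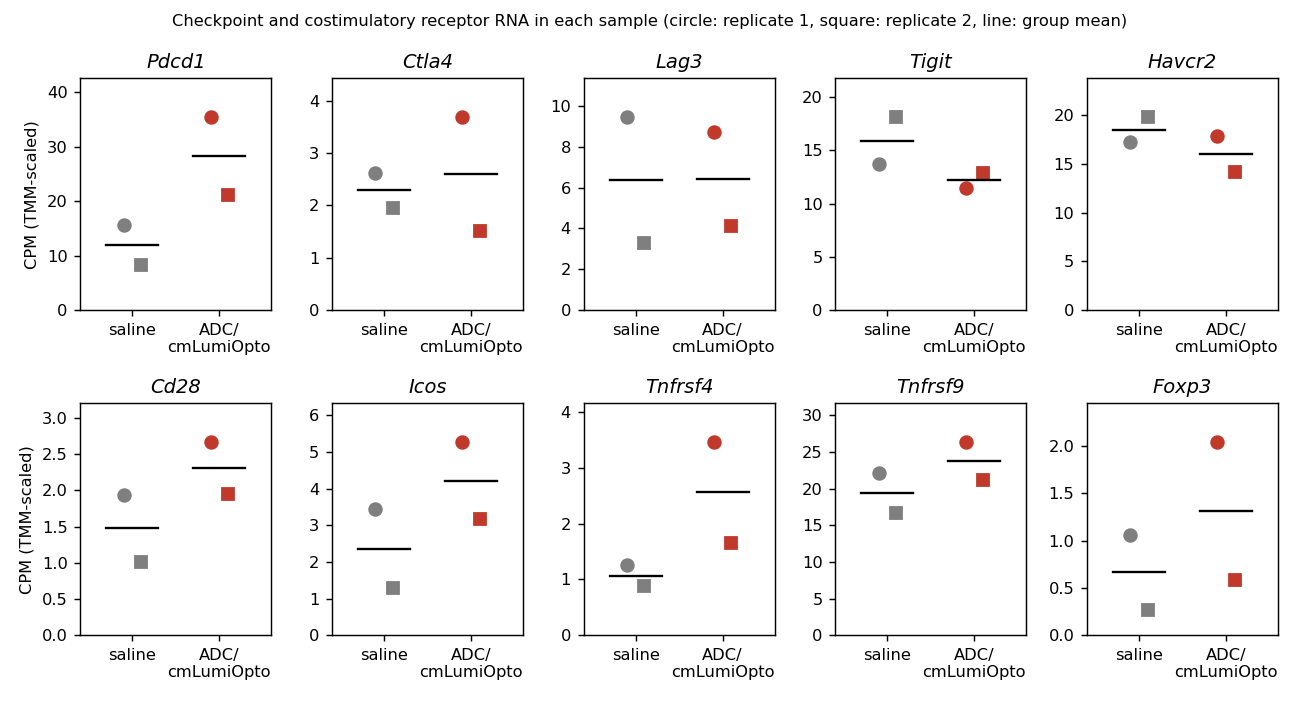
Expression of each receptor gene in CPM (y axis, TMM-scaled, from 0) in the 2 saline samples (grey) and the 2 ADC/cmLumiOpto samples (red), with circles for replicate 1, squares for replicate 2 and lines for group means. The groups do not overlap for Pdcd1, Cd28 and Tnfrsf4, with the treated samples higher, and for Tigit, with the treated samples lower.

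Pdcd1 (ENSMUSG00000026285), which encodes PD-1, was counted 251 times in saline replicate 1 and 124 times in replicate 2, and 626 and 436 times in ADC/cmLumiOpto replicates 1 and 2. Both treated samples lay above both saline samples. The mean level was 12.02 ± 5.19 CPM for saline and 28.4 ± 10.1 CPM for the treated lungs (SD, n = 2 each), and the log2FC was 1.24 (SE 0.38, adjusted p = 0.143 in edgeR). The adjusted p was 0.0288 in DESeq2 and 0.0478 in the exact test of edgeR. The log2FC ranged from 0.83 to 1.76 on leaving out single samples, and was 1.00 (adjusted p = 0.214 in edgeR) when a trend of the counts on gene length was removed. Scaled to Cd3 RNA, which moved the median of all tested genes to -1.81, Pdcd1 was at -0.48, and scaled to all 13 T cell markers, with a median of -1.24, it was at 0.045.

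The other 4 checkpoint receptors had log2FC values nearer to 0. Ctla4 (ENSMUSG00000026011) had 42 and 29 counts in the saline lungs against 65 and 31 in the treated samples. The groups overlapped, since ADC/cmLumiOpto replicate 2, at 1.51 CPM, lay below both saline samples. The log2FC of Ctla4 was 0.17 (SE 0.55, adjusted p = 0.877 in edgeR), with values from -0.59 to 0.68 on leaving out single samples.

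Lag3 (ENSMUSG00000030124), whose product binds MHC class II, had 151 and 49 counts in the saline lungs against 154 and 85 in the treated samples. In both groups replicate 1 held more than replicate 2, and the group means were nearly equal at 6.37 ± 4.34 CPM and 6.44 ± 3.24 CPM (SD, n = 2 each). Its log2FC was 0.0089 (SE 0.58, adjusted p = 0.996 in edgeR), from -0.61 to 0.96 with each sample left out.

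Tigit (ENSMUSG00000071552), a receptor for the poliovirus receptor Pvr, had 219 and 269 counts in the saline lungs against 203 and 265 in the treated samples. After scaling to library size both treated samples, at 11.5 and 12.9 CPM, lay just below both saline samples, at 13.7 and 18.1 CPM. The log2FC was -0.38 (SE 0.26, adjusted p = 0.405 in edgeR). Havcr2 (ENSMUSG00000020399), which encodes TIM-3, was the steadiest of the 5 in counts, with 275 and 293 in the saline lungs against 315 and 291 in the treated samples. The groups overlapped and the log2FC was -0.21 (SE 0.24, adjusted p = 0.626 in edgeR). Both genes kept a negative value with each sample left out, up to -0.15 for Tigit and -0.049 for Havcr2.

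Among the costimulatory receptors, Tnfrsf4 (ENSMUSG00000029075), which encodes OX40, differed most in fold. It had 20 and 13 counts in the saline lungs against 61 and 34 in the treated samples, and the groups did not overlap. The mean levels were 1.06 ± 0.264 and 2.56 ± 1.27 CPM (SD, n = 2 each). The log2FC of 1.25 (SE 0.57, adjusted p = 0.243 in edgeR) stayed between 0.64 and 1.69 on leaving out single samples. The exact 95% Poisson interval of 13 counts is 6.92 to 22.2 and that of 34 counts is 23.5 to 47.5, so counting error was wide for both.

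Cd28 (ENSMUSG00000026012), the main costimulatory receptor, had 31 and 15 counts in the saline lungs against 47 and 40 in the treated samples. In CPM both treated samples lay above both saline samples, by a narrow margin of 1.95 against 1.94 CPM between the nearest of them. Its log2FC was 0.64 (SE 0.53, adjusted p = 0.496 in edgeR), from 0.26 without saline replicate 2 to 1.18 without saline replicate 1. For Icos (ENSMUSG00000026009), which supports helper T cells, there were 55 and 19 counts in the saline lungs against 93 and 65 in the treated samples. ADC/cmLumiOpto replicate 2, at 3.17 CPM, lay between the saline samples, at 1.28 and 3.44 CPM. The log2FC of Icos was 0.83 (SE 0.57, adjusted p = 0.412 in edgeR), from 0.31 without saline replicate 2 to 1.71 without saline replicate 1.

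Tnfrsf9 (ENSMUSG00000028965), which encodes 4-1BB, was the most abundant of the costimulatory receptors, with 354 and 247 counts in the saline lungs against 465 and 434 in the treated samples. The groups overlapped in CPM, as saline replicate 1, at 22.1, lay above ADC/cmLumiOpto replicate 2, at 21.2. The log2FC was 0.29 (SE 0.24, adjusted p = 0.492 in edgeR), from 0.12 without saline replicate 2 to 0.51 without saline replicate 1.

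Foxp3 (ENSMUSG00000039521) was the least abundant of the 10, with 17 and 4 counts in the saline lungs against 36 and 12 in the treated samples. The groups overlapped, and the 4 counts of saline replicate 2 have an exact 95% Poisson interval of 1.09 to 10.2. The log2FC was 0.95 (SE 0.88, adjusted p = 0.547 in edgeR), and it moved from -0.19 without ADC/cmLumiOpto replicate 1 to 2.24 without saline replicate 1.

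In all, 4 of the 10 genes had groups that did not overlap, 3 with the treated samples higher and 1 with them lower. Over all tested genes the groups did not overlap for 57.0%, with 28.1% higher and 28.8% lower, so the count among the 10 was no larger than the background share. A log2FC of 1 or more was found for 2 of the 10 and for 9.31% of all tested genes.

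Levels were compared between genes as CPM per kilobase of listed gene length. In the saline group Tigit was highest, at 17.3 ± 3.42 CPM per kilobase (SD, n = 2), and it lay above the next gene in both samples. Tnfrsf9 (7.12 ± 1.42), Havcr2 (6.79 ± 0.665) and Pdcd1 (6.22 ± 2.68) followed with overlapping ranges. Lag3 came next, at 3.02 ± 2.06, and its upper sample reached the lower sample of Pdcd1. The ranges per kilobase of Ctla4 (0.983 ± 0.204), Tnfrsf4 (0.779 ± 0.194) and Icos (0.688 ± 0.445) overlapped. Those of Cd28 (0.241 ± 0.107) and Foxp3 (0.146 ± 0.123), the lowest in the list, overlapped as well. Within each saline sample, however, Pdcd1 lay above Lag3, Ctla4 above Tnfrsf4 and Icos, and Cd28 above Foxp3. In the ADC/cmLumiOpto group Pdcd1 stood first in the order, at 14.7 ± 5.20 CPM per kilobase (SD, n = 2), but its range held that of Tigit, at 13.3 ± 1.09. Tnfrsf9 (8.73 ± 1.35), Havcr2 (5.89 ± 0.952) and Lag3 (3.05 ± 1.54) followed with ranges that did not overlap. The order below them ran Tnfrsf4, Icos, Ctla4, Cd28 and Foxp3. Here the range of Tnfrsf4 overlapped with those of Lag3, Icos and Ctla4, and that of Cd28 with that of Foxp3. Within each treated sample Lag3 lay above Tnfrsf4, and Tnfrsf4 above Icos and Ctla4.

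The receptors were next set against the RNA of T cells in the same sample. Cd3d, Cd3e and Cd3g, which encode chains of the CD3 complex of the T cell receptor, summed to 230 and 67 counts in saline replicates 1 and 2 and to 642 and 384 counts in ADC/cmLumiOpto replicates 1 and 2. The sum was larger in both treated samples than in both saline samples, as were Cd3d and Cd3g, while Cd3e overlapped between groups. Of the 13 T cell markers, 13 had a positive log2FC, with a median of 1.09, but the groups did not overlap for only 4 of them, near the 28.1% of all tested genes that were higher without overlap, and the sum of the 13 overlapped (70.1 CPM in saline replicate 1 against 62.9 CPM in ADC/cmLumiOpto replicate 2). None had an adjusted p under 0.05 in the quasi-likelihood test of edgeR and 3 had an unadjusted p under 0.05, while 2 were called in DESeq2 and 1 in the exact test. A positive value at that unadjusted p was found for 11.0% of all tested genes. The 2 saline samples differed in Cd3 RNA more than the 2 treated samples did, since saline replicate 2 had 0.314 of the CPM of saline replicate 1, and ADC/cmLumiOpto replicate 2 had 0.515 of that of replicate 1.

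Between the saline samples the 10 genes split. All 13 T cell markers were lower in saline replicate 2, at between 0.167 and 0.567 of their level in saline replicate 1. Of the 10 receptor and regulator genes, 8 were lower in that sample as well, where 7732 of all 15320 tested genes were. Foxp3, at 0.254 of its level in saline replicate 1, Lag3 (0.350), Icos (0.372), Cd28 (0.522) and Pdcd1 (0.533) lay within the range of the T cell markers, while Tnfrsf4 (0.701), Ctla4 (0.744) and Tnfrsf9 (0.752) lay above it. Tigit and Havcr2 were higher in saline replicate 2, at 1.32 and 1.15 times their level in saline replicate 1. Between the treated samples this split held only in part. Tigit was again higher in the sample with less Cd3 RNA, ADC/cmLumiOpto replicate 2, at 1.12 times its level in the other. Foxp3 was at 0.287 and Tnfrsf9 at 0.803. Havcr2 was lower in that sample, at 0.795, unlike between the saline samples. Ctla4 (0.410) and Tnfrsf4 (0.480) lay below the ratio of Cd3 RNA, 0.515. As a description of 2 pairs of samples this carries no test. The 12 markers of macrophages and dendritic cells summed to 571.3 and 387 CPM in the saline lungs against 636.2 and 518 CPM in the treated samples, and the 8 NK cell markers to 27.4, 18.2, 54.1 and 22.5 CPM in the same order of samples. Both sums were lowest in saline replicate 2. Gene by gene, 9 of the 12 macrophage and dendritic cell markers were lower in that sample than in saline replicate 1 and 3 were higher (Cd14, Clec10a and Mertk). Of the 8 NK markers 7 were lower and 1, Prf1, was higher. Siglech, Klre1 and Klrb1c were at 0 counts in it. The 6 epithelial markers summed to 2638 and 3022 CPM in the saline lungs against 2574 and 2475 CPM in the treated samples. This sum was highest in saline replicate 2, where 3 of the 6 were higher than in saline replicate 1 and 3 were lower. The part of any of these cells in the counts of Tigit and Havcr2 was not tested.

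**Figure D2:**
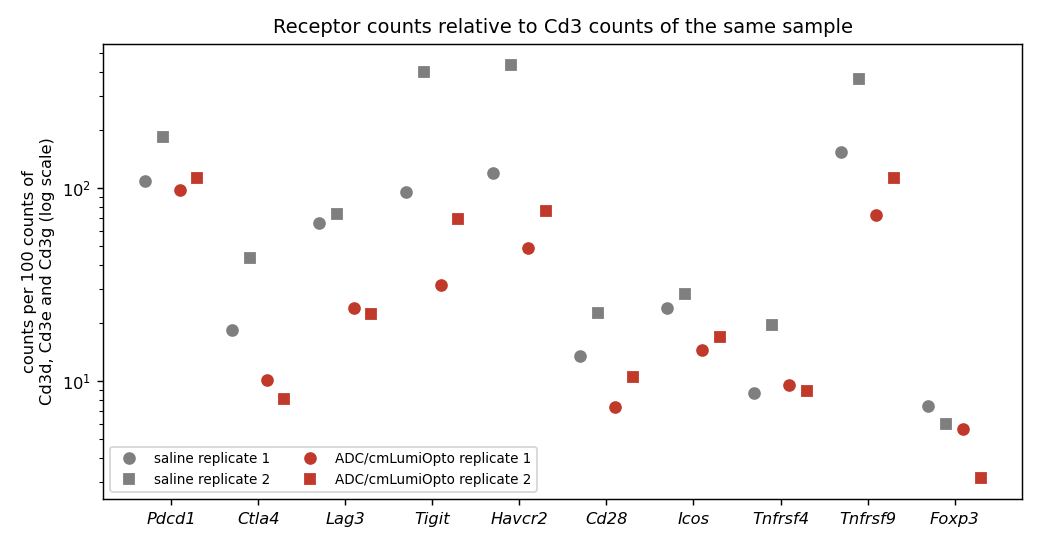
Counts of each gene per 100 counts of Cd3d, Cd3e and Cd3g in the same sample (y axis, log scale) for the 2 saline samples (grey) and the 2 ADC/cmLumiOpto samples (red), with circles for replicate 1 and squares for replicate 2. Pdcd1 overlaps between groups, at 109.1 and 185.1 against 97.5 and 113.5, while Tigit and Havcr2 reach 401.5 and 437.3 in saline replicate 2.

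Per 100 Cd3 counts, Pdcd1 reached 109.1 in saline replicate 1 and 185.1 in replicate 2, against 97.5 and 113.5 in ADC/cmLumiOpto replicates 1 and 2. The groups overlapped on this scale, as they did for Tnfrsf4, at 8.70 and 19.4 against 9.50 and 8.85. The other 8 genes had fewer counts per Cd3 count in both treated samples than in both saline samples, where 74.0% of all tested genes did, and none of the 10 had more in both (1.36% of all tested genes). For Lag3 the values were 65.7 and 73.1 in the saline lungs against 24.0 and 22.1 in the treated samples, with little spread within either group. For Ctla4 they were 18.3 and 43.3 against 10.1 and 8.07, for Icos 23.9 and 28.4 against 14.5 and 16.9, and for Foxp3 7.39 and 5.97 against 5.61 and 3.13. Tigit went from 95.2 and 401.5 to 31.6 and 69.0.

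When the fit was scaled to the Cd3 counts in place of the library, the median log2FC of all tested genes was -1.81, and all 10 genes had negative values. Relative to that median, Pdcd1 (log2FC -0.48, SE 1.23), Tnfrsf4 (-0.57, SE 1.25), Foxp3 (-0.62), Icos (-0.73), Cd28 (-0.99), Tnfrsf9 (-1.49), Lag3 (-1.59) and Ctla4 (-1.73) lay above it, and Havcr2 (-2.15) and Tigit (-2.30) lay below. The adjusted p in edgeR lay between 0.316 and 0.736 for the 10 genes on this scale, and 0.0261% of all tested genes were called (0.0131% when scaled to all 13 T cell markers), with 0 of the 10 among them. The difference of Pdcd1 between groups was therefore positive per library and smaller than its SE per Cd3 count. This fit treats the Cd3 sums as known, although that of saline replicate 2 rests on 67 counts.

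**Figure D3:**
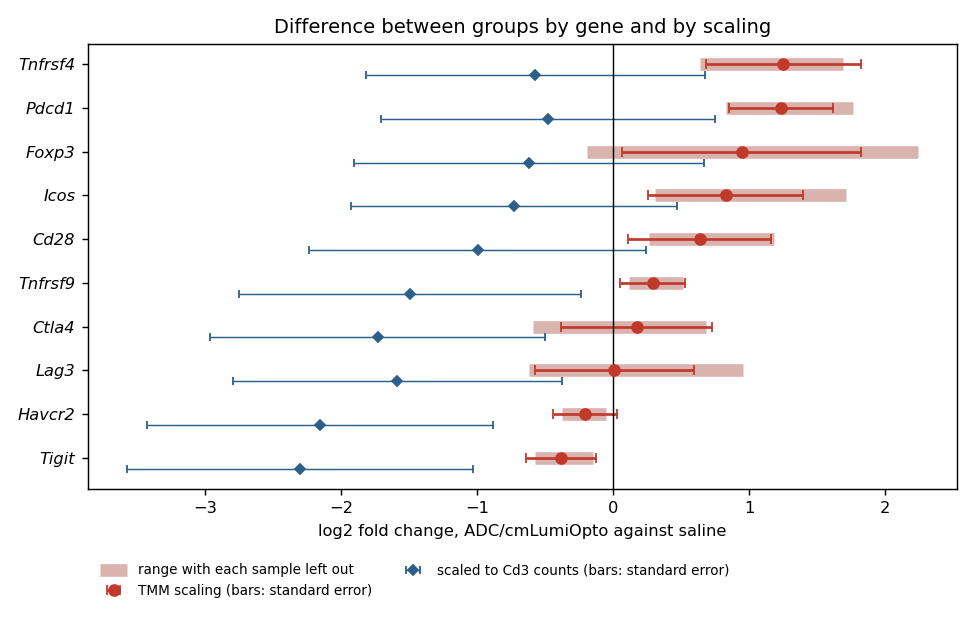
Log2 fold change of ADC/cmLumiOpto against saline (x axis) for each gene under TMM scaling (red circles) and scaled to Cd3 counts (blue diamonds), with bars for SEs and pale bands for the range of the TMM value with each sample left out. Under TMM scaling Tnfrsf4 and Pdcd1 lie at 1.25 and 1.24. Their bands stay above 0, as do those of Cd28, Icos and Tnfrsf9. Under Cd3 scaling all 10 genes lie below 0, where the median of all tested genes is -1.81.

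The remaining receptors of the same families leaned in the same direction as the T cell markers. Of 13 listed, 12 were tested and 12 had a positive log2FC, with a median of 0.85. Of the 13, 6 were higher without overlap in the treated samples and 0 were lower, against 28.1% and 28.8% of all tested genes. None had an adjusted p under 0.05 in the quasi-likelihood test of edgeR, and 2 had an unadjusted p under 0.05 (DESeq2 and the exact test called 0). A positive value at that unadjusted p was found for 11.0% of all tested genes. Cd226, the activating receptor that shares its ligands with TIGIT, had 37 and 12 counts in the saline lungs against 93 and 76 in the treated samples, a log2FC of 1.51 (SE 0.57, adjusted p = 0.187 in edgeR). Tnfrsf18, which encodes GITR and is the chromosomal neighbor of Tnfrsf4, had 20 and 15 counts against 60 and 42, a log2FC of 1.26 (adjusted p = 0.203 in edgeR), and its counts nearly matched those of Tnfrsf4 sample by sample. Vsir, which encodes VISTA and is abundant in myeloid cells, had a log2FC of 0.53 (adjusted p = 0.289 in edgeR). Cd40lg was not tested, with 6 counts in ADC/cmLumiOpto replicate 1 and 0 in the other samples.

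The ligands of the receptors divided between directions. Of 18 listed, 15 were tested, 10 with a positive and 5 with a negative log2FC, and the median was 0.15. In the quasi-likelihood test of edgeR 0 had an adjusted p under 0.05 and 2 had an unadjusted p under 0.05, and 1 was called in DESeq2 and in the exact test. The share of all tested genes at that unadjusted p was 23.2%. For PD-1, Cd274 (PD-L1) had 386 and 405 counts in the saline lungs against 501 and 391 in the treated samples, a log2FC of -0.12 (SE 0.25). Pdcd1lg2 (PD-L2) had 83 and 5 counts against 87 and 23, a value of 0.12 (SE 1.12). Both ligands of PD-1 overlapped between groups. Pdcd1 did not, which it shared with 57.0% of all tested genes. Of the 18 ligands, 4 were higher without overlap in the treated samples and 3 were lower (Tnfsf9, Lgals9 and Hmgb1). Over all tested genes 28.1% were higher and 28.8% lower without overlap.

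For CD28 and CTLA-4, Cd86 had 201 and 103 counts in the saline lungs against 399 and 264 in the treated samples, a log2FC of 0.86 (SE 0.40, adjusted p = 0.249 in edgeR), and its groups did not overlap. Cd80 had 21 and 65 counts against 95 and 56, and its groups overlapped (log2FC 0.51, SE 0.65). The ICOS ligand Icosl had 147 and 131 counts against 236 and 284, a log2FC of 0.59 (SE 0.25, adjusted p = 0.216 in edgeR), with both treated samples above both saline samples. Tnfsf9, the ligand of 4-1BB, pointed the other way, with 146 and 91 counts against 84 and 121 and a log2FC of -0.52 (SE 0.35). Tnfsf4, the ligand of OX40, had 11 or fewer counts in each sample and was not tested.

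The TIGIT ligands Pvr and Nectin2 had log2FC values of 0.015 (SE 0.19) and -0.21 (SE 0.20), and Nectin3 of 0.15 (SE 0.23). Galectin-9 (Lgals9), a ligand of TIM-3, had a log2FC of -0.24 (SE 0.17), Ceacam1, another, of 0.67 (SE 0.59), and galectin-3 (Lgals3), a ligand of LAG-3, of 0.59 (SE 0.21, adjusted p = 0.172 in edgeR). Fgl1, another LAG-3 ligand, had 2 or fewer counts in each sample. Tnfsf14 (LIGHT) had the smallest p of the ligands, with 69 and 48 counts in the saline lungs against 114 and 341 in the treated samples, a log2FC of 1.61 (SE 0.50, adjusted p = 0.143 in edgeR). Its highest value fell in the sample with the most neutrophil RNA, and the part of those cells in it was not tested.

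Inside the cell, 20 of 21 signaling genes were tested, 17 with a positive and 3 with a negative log2FC and a median of 0.62. Of the 21, 13 were higher without overlap in the treated samples and 3 were lower, against 28.1% and 28.8% of all tested genes. With 0 at an adjusted p under 0.05 in the quasi-likelihood test of edgeR, 5 of the 20 tested had a positive and 1 a negative value at an unadjusted p under 0.05. At that unadjusted p, 11.0% of all tested genes had a positive and 12.2% a negative value. In DESeq2 and in the exact test 1 signaling gene was called. The gene of this list with the smallest p was Cblb, a ubiquitin ligase that raises the threshold for T cell activation without CD28, and it was lower, with 705 and 700 counts in the saline lungs against 486 and 649 in the treated samples (log2FC -0.62, SE 0.17, adjusted p = 0.127 in edgeR). Traf1, an adaptor of 4-1BB and OX40, had a log2FC of 0.58 (SE 0.17, adjusted p = 0.136 in edgeR). Ptpn6, which encodes the phosphatase SHP-1, was at 0.71 (SE 0.22, adjusted p = 0.147 in edgeR), whereas Ptpn11, which encodes SHP-2, the main phosphatase recruited by PD-1, was at -0.32 (SE 0.16, adjusted p = 0.274 in edgeR). Ptpn11 is expressed in most cells, and at no fewer than 2997 counts it was far more abundant here than Pdcd1.

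**Figure D4:**
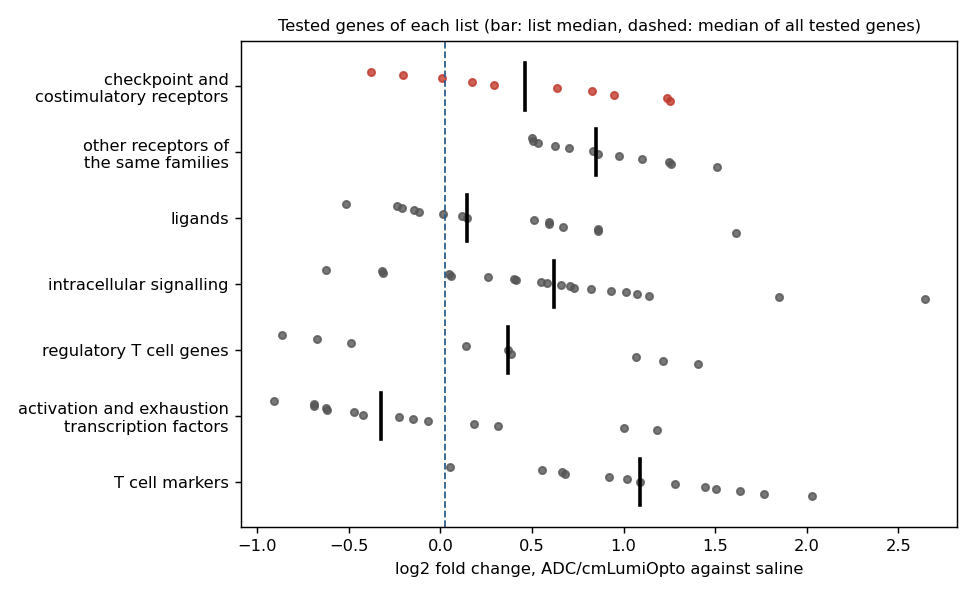
Log2 fold change of ADC/cmLumiOpto against saline (x axis) of each tested gene (dots) in the checkpoint and costimulatory receptors (red) and 6 other lists (grey), with bars for list medians and a dashed line for the median of all tested genes, 0.028. Among the 7 lists drawn the T cell markers have the highest median, 1.09, and the activation and exhaustion transcription factors the lowest, -0.33, while 3 marker lists not drawn (macrophage and dendritic cell, lung, neutrophil) had higher medians than either.

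Of 11 further regulatory T cell genes, 9 were tested, 6 with a positive and 3 with a negative log2FC (median 0.37), and 0 had an adjusted p under 0.05 in the quasi-likelihood test of edgeR, DESeq2 or the exact test. At an unadjusted p under 0.05 there was 1, Ikzf2, which encodes Helios, against 23.2% of all tested genes. It was lower after treatment, with 177 and 214 counts in the saline lungs against 100 and 170 in the treated samples, a log2FC of -0.87 (SE 0.32, adjusted p = 0.180 in edgeR), the opposite sign to Foxp3. Ebi3, a subunit of interleukin-35, had a log2FC of 1.40 (SE 0.68), and Lrrc32 of -0.49 (SE 0.34). Ccr8 and Il2ra, which mark activated regulatory T cells in tumors, had log2FC values of 1.21 (SE 0.95) and 0.37 (SE 0.55). The highest count of Ikzf2, 214, fell in saline replicate 2, where Foxp3 had 4 counts. Of the 11 genes, 8 were lower in CPM in saline replicate 2 than in saline replicate 1, as Foxp3 was. The other 3 were higher, Ikzf2 among them. The part of cells other than regulatory T cells in these counts was not tested.

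The 14 transcription factors of activation and exhaustion were all tested, 4 with a positive and 10 with a negative log2FC and a median of -0.33. None had an adjusted p under 0.05 in the quasi-likelihood test of edgeR, DESeq2 or the exact test, and 2 had an unadjusted p under 0.05. The share of all tested genes at that unadjusted p was 23.2%. Batf, an AP-1 family factor of activated T cells, had 81 and 54 counts in the saline lungs against 209 and 163 in the treated samples, a log2FC of 1.18 (SE 0.36, adjusted p = 0.143 in edgeR), and its groups did not overlap. Tox, the factor most closely tied to exhausted T cells, had 55 and 18 counts against 41 and 12, with a log2FC of -0.69 (SE 0.80). Nfatc1 and Nfatc2, which encode NFAT factors, had values of -0.47 (SE 0.25) and -0.69 (SE 0.25, adjusted p = 0.177 in edgeR). In this list of 14, 1 gene, Batf, was higher without overlap in the treated samples and 3 were lower (Nfatc1, Nfatc2 and Bach2). Over all tested genes 28.1% were higher and 28.8% lower without overlap. Most genes of this list are also expressed outside T cells.

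Among the other cell types, positive values were found for 10 of 12 macrophage and dendritic cell markers, 6 of 6 neutrophil markers, 5 of 6 tested NK markers, 2 of 3 tested B cell markers, 6 of 6 lung markers and 2 of 6 epithelial markers. None of these had an adjusted p under 0.05 in the quasi-likelihood test of edgeR. At an unadjusted p under 0.05, 3, 5, 2, 1, 4 and 0 of them, in that order, had a positive value, as did 11.0% of all tested genes. A negative value at that p was found for 1 NK marker (Prf1, log2FC -0.74), 1 epithelial marker (Krt14, log2FC -0.62) and 12.2% of all tested genes. The median log2FC was 1.28 for macrophages and dendritic cells, 2.16 for neutrophils, 1.05 for NK cells, 0.84 for B cells, 1.97 for lung and -0.15 for epithelium. DESeq2 called 2, 0, 1, 0, 1 and 0 and the exact test 2, 2, 1, 0, 3 and 0 of them. The 6 neutrophil markers summed to 1151 and 532.7 CPM in the saline lungs against 1151 and 8022 CPM in the treated samples. Each had its highest value in ADC/cmLumiOpto replicate 2, and only 2 of the 6 were higher without overlap between groups. The summed level of the 6 lung markers was lower in both saline samples than in both treated samples, as that of Pdcd1 was. So were 5 of the 6 markers and 28.1% of all tested genes, while Cdh5 overlapped. The part of the lung content in the difference of Pdcd1 was not tested.

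The profile of the 10 genes over the 4 samples, taken as their mean log2 CPM centered on each gene, was 0.11 and -0.58 in the saline lungs against 0.60 and -0.13 in the treated samples. Cd28 lay nearest to this mean, with a root-mean-square distance of 0.15 on the log2 scale, and Tigit farthest, at 0.65. Among the other tested genes the 5 nearest were Gm9790, 9330104G04Rik, Gm52964, Fam136a and Rab30, at distances between 0.029 and 0.045 over 4 samples. Fam136a, the only one of them with over 100 counts in each sample, had 579 and 346 counts in the saline lungs against 964 and 634 in the treated samples. None of the 5 is on the lists of T cell genes used here.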

How the data were processed

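Messenger RNA of 4 samples was sequenced on an Illumina platform. The values deposited by the authors are raw read counts for 56748 genes and had not been normalized. The methods name HISAT2 as the aligner. The labels name mm39 and the methods GRCm38/mm10, and the counting program is not given in the sources used here. The listed positions of 1435 of 52073 shared identifiers equalled those of the GENCODE annotation of GRCm38. The deposited table also lists gene lengths, used as other, unscaled values in bases to divide CPM.

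Groups were taken from the titles of the samples. The labels do not say which mouse each sample came from, so p-values measure the spread between these samples. The counts were fitted with edgeR 4.0.16 (R 4.3.3). Genes had to pass filterByExpr (minimum count 10, minimum total 15), and libraries were normalized by TMM and compared by glmQLFit and glmQLFTest with Benjamini-Hochberg adjustment and a threshold of 0.05. The standard error is the log2 fold change divided by the square root of F. CPM are counts scaled to the TMM-adjusted library size, as mean ± SD (n = 2). Log2 CPM used a prior count of 2.

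The 10 genes, the lists and the tests were chosen with earlier results of these data known. Named from each list were the 3 tested genes with the smallest p and, for ligands, those of the 10 receptors. Some genes of the report (Tox, Ptpn11, Ccr8, Il2ra, Cd40lg) were named after their values were seen. Fyb1 was matched under the symbol Fyb. Alternatives were DESeq2 1.42.0, the exact test, 2 other normalizations, 2 other filters, a block for the replicate number, removal of a gene length trend (lowess span 0.3), scaling to Cd3 counts, and each sample left out. In simulated data for ADC/cmLumiOpto against saline, with 15005 genes tested, the quasi-likelihood test called 81% of 200 genes changed by 2 on the log2 scale, and 4 unchanged genes. The simulated counts followed the trend of dispersion on abundance. They held no spread of dispersion between genes and no differences in cell content between samples of a group. The share called therefore need not hold for the real samples.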

Additional observations from a re-analysis of the deposited data

How the results depend on the processing

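The number of genes at an adjusted p under 0.05 was 0 in edgeR's quasi-likelihood test and stayed 0 without TMM, with upper-quartile normalization, with at least 10 counts in every sample and with the length trend removed. It was 1353 in DESeq2 (579 higher, 774 lower), 1170 in the exact test (606 higher, 564 lower), 2259 without the expression filter and between 0 and 206 with each sample left out, the highest without saline replicate 1. Of the 10 genes, 1, Pdcd1, was called in DESeq2, in the exact test and without the filter (adjusted p = 3.07e-04 in edgeR), and 0 with any sample left out. Its adjusted p ranged from 3.07e-04 to 0.979 over the alternatives.

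The replicate numbers are shared by the groups, but nothing in the labels pairs the mice, and the deviations of replicates 1 of both groups correlated by 0.099 over the tested genes. With a replicate block 607 genes were called, Pdcd1 among them as 1 of the 10 (adjusted p = 0.0306 in edgeR).

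The number of genes of the 10 with groups that did not overlap was 4 of 10, against 57.0% of all tested genes. It was 5 without TMM (56.8% of all tested genes), 8 per Cd3 count (75.3%) and between 5 and 9 with each sample left out, where the share of all tested genes lay between 74.7% and 81.7% (added once the data were known, and a comparison with a lone sample separates more readily).

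Of 139 values of single genes under the alternatives, 113 kept their direction and side of the threshold, 4 passed the threshold (all Pdcd1) and 22 changed sign. Foxp3 in DESeq2, which gave it no adjusted p, is counted among the 113 by its direction alone. Of the 22, 15 came from the scalings to T cell RNA, which by construction move every gene (median -1.81 for Cd3). The cause of the other 7 was not tested. Scaled to Cd3 counts, the log2 fold changes were -0.48 for Pdcd1, -1.73 for Ctla4, -1.59 for Lag3, -0.99 for Cd28, -0.73 for Icos, -0.57 for Tnfrsf4, -1.49 for Tnfrsf9 and -0.62 for Foxp3. Scaled to the 13 T cell markers, an alternative added once the data were known, the median of all tested genes was -1.24, and the values were 0.045 for Pdcd1, which kept its sign, -1.23 for Ctla4, -1.10 for Lag3, -0.47 for Cd28, -0.23 for Icos, -0.065 for Tnfrsf4, -0.94 for Tnfrsf9 and -0.18 for Foxp3. With the length trend removed Ctla4 was at -0.015 and Lag3 at -0.21. Without saline replicate 2 they were at -0.0039 and -0.54, and without ADC/cmLumiOpto replicate 1 at -0.59 and -0.61, with Foxp3 at -0.19. The highest values on leaving out single samples were 0.68 for Ctla4, 0.96 for Lag3 and 2.24 for Foxp3. Upper-quartile normalization moved the median of all genes to 0.11. Counts were lowest for Foxp3, Tnfrsf4 and Cd28.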
